A study of Homo sapiens with 12 samples.

Results

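Hepatocyte transcription factors were followed at the mRNA level in Huh7 cells, a human hepatocellular carcinoma line, with and without knockdown of FAM111B. The 8 genes, HNF4A, FOXA1, FOXA2, FOXA3, CEBPA, NR1H4, NR5A2 and ONECUT1, were taken by symbol from the deposited expression table, in which each has 1 row among 60666 listed genes. All 8 were above 1 TPM (a relative transcript level that is corrected for length and adds up to nearly the same total in each library) in every library and entered the test with 14394 genes in all. The study asked which genes change when FAM111B, a protease gene, is silenced. The control group was Huh7 cells carrying a lentiviral control sequence, and the shFAM111B group was Huh7 cells carrying a lentiviral short hairpin RNA against FAM111B. Both were stable lines kept after selection, and the labels name no drug treatment. Each group thus stands for 1 selected population, and no other hairpin is compared. There were 3 libraries in each group. The 6 libraries of Hep3B, the other cell line of the series, were not analysed here. Nothing says that the libraries of a group came from separate transductions, so p-values measure the spread between these libraries, which may be technical.

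Liver identity is held by a network of transcription factors that occupy many of the same enhancers and regulate each other. FOXA proteins open chromatin ahead of other factors, HNF4A and the ONECUT factor HNF6 drive hepatocyte genes for lipoproteins, clotting and metabolism, and CEBPA favours the quiescent, differentiated state. NR1H4 (the bile acid receptor FXR) and NR5A2 (LRH-1) are nuclear receptors that tune bile acid and cholesterol handling.

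The knockdown and the cell identity were checked first. FAM111B was at 7.84, 8.29 and 7.99 TPM in the controls and at 0.96, 1.13 and 0.84 TPM in the shFAM111B libraries, a log2 fold change of -2.20 (limma adjusted p = 6.09e-06). Of the hepatocyte markers, ALB (albumin) was at 6419 to 6492 TPM in the controls and 3988 to 4356 TPM after knockdown, and AFP (alpha-fetoprotein, the fetal counterpart of albumin) was at 7045 to 7411 and 21853 to 25038 TPM. Mitochondrially encoded transcripts took 19.7% to 20.2% of the TPM in the controls and 7.4% to 8.1% after knockdown. The median level of the tested genes was 12.1 to 12.4 TPM in the controls and 8.14 to 8.24 TPM after knockdown. The median of their log2 fold changes, a separate quantity, was -0.36, and the change of each factor is also given relative to it, called the median gene below. No reads or counts were used, so the depth behind each TPM is unknown.

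The windows just before the transcription starts are shown for HNF4A and NR5A2, which fell, and for CEBPA, which rose, because these factors are described as binding each other's regulatory regions. The sequences are from RefSeq (GRCh38.p14), 250 bases up to the start, on the gene's strand and in lower case, with matches to any of 5 factor motifs in capitals. HNF4A has a pair of starts, and the window of the downstream one lies in an intron of the longer transcripts, as does the NR5A2 window shown. The CEBPA window overlaps the annotated first bases of the CEBPA transcript in GENCODE, and the upstream HNF4A window lies outside annotated genes.
HNF4A upstream start, chr20:44355449-44355698, plus strand: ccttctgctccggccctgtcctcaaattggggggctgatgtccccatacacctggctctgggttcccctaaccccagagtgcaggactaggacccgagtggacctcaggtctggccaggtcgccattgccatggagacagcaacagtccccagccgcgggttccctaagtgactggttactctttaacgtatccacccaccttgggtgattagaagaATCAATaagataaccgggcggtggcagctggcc
HNF4A downstream start, chr20:44400989-44401238, plus strand: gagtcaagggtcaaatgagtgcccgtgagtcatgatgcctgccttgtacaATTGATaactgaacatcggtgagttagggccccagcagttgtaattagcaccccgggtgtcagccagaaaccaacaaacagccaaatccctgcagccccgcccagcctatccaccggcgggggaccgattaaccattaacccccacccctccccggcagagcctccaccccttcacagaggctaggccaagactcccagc
NR5A2, chr1:200042341-200042590, plus strand: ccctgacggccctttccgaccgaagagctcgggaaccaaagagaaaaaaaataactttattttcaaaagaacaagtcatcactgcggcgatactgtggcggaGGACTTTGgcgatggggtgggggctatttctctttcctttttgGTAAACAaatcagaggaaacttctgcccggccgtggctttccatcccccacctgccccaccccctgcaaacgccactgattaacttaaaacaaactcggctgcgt
CEBPA, chr19:33302535-33302784, minus strand: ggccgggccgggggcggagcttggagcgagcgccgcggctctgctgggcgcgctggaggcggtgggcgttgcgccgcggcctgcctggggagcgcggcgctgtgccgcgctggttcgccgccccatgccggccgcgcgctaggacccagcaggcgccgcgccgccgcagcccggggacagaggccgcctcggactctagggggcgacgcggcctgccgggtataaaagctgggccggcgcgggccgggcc

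The motifs searched on both strands were TGTTTNC for FOXA, ATTGAT for ONECUT, CAAAGTCC for HNF4A, AAGGTCA for NR5A2 and TTGCNNAA for CEBP. In the downstream HNF4A window ATTGAT lay at positions -200 to -195 from the start. The upstream HNF4A window held the reverse complement of ATTGAT at -33 to -28. The NR5A2 window held a FOXA match at -105 to -99 and an HNF4A match at -148 to -141, each as the reverse complement. Among 35116 windows of the same length, 15.5% held the FOXA letters, 5.58% the ONECUT, 1.02% the HNF4A, 3.44% the NR5A2 and 9.05% the CEBP letters. The CEBPA window held none of them and had a GC content of 81.2%, against a median of 58.0% over all windows. The GC content was 75.2% for FOXA3, which also rose. For the factors that fell it was 76.8% for ONECUT1, 67.2% for FOXA1, 58.4% and 58.0% for HNF4A, and 36.0% and 50.8% for NR5A2. Whether GC content goes with direction was not tested. Of the other windows (7 of the 8 factors had at least 1, and 9 windows were found), FOXA1 held 1 FOXA match at -235 to -229. NR1H4, ONECUT1, FOXA3 and the other NR5A2 window held none. That NR5A2 window, chr1:200027460-200027709, spans the annotated start of the gene at 200027602, unlike the intronic window shown. All matches given are of letters and say nothing of occupancy.

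In the controls HNF4A was the most abundant of the factors, and after knockdown it was CEBPA. HNF4A, NR5A2 and ONECUT1 fell more than 2-fold, FOXA1 and FOXA2 fell less, FOXA3 and CEBPA rose by less than 2-fold, and NR1H4 did not pass the test. At a fold of at least 2 and a limma adjusted p under 0.05, none of the factors (0) passed as higher, where 6.77% of all tested genes did, and 3 passed as lower, where 23.7% did. With the library median subtracted 2 were called higher (17.9% of all genes) and 1 lower (9.07%), and with a trend on length and expression removed 0 higher (9.54%) and 1 lower (9.11%). Without a limit on the fold, 7 factors changed (72.0% of all genes did), of which 2 rose (21.1%) and 5 fell (50.9%). The groups did not overlap for the same 7, as for 75.2% of all tested genes, 22.5% higher and 52.8% lower. The 8 had a median log2 fold change of -0.67, against -0.36 over all tested genes. An exact two-sided permutation test gave p = 0.1 for the 7, which is the smallest that 3 against 3 allows, and p = 0.2 for NR1H4. Fewer cells of a type and less RNA per cell cannot be told apart in such bulk samples.

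**Figure D1:**
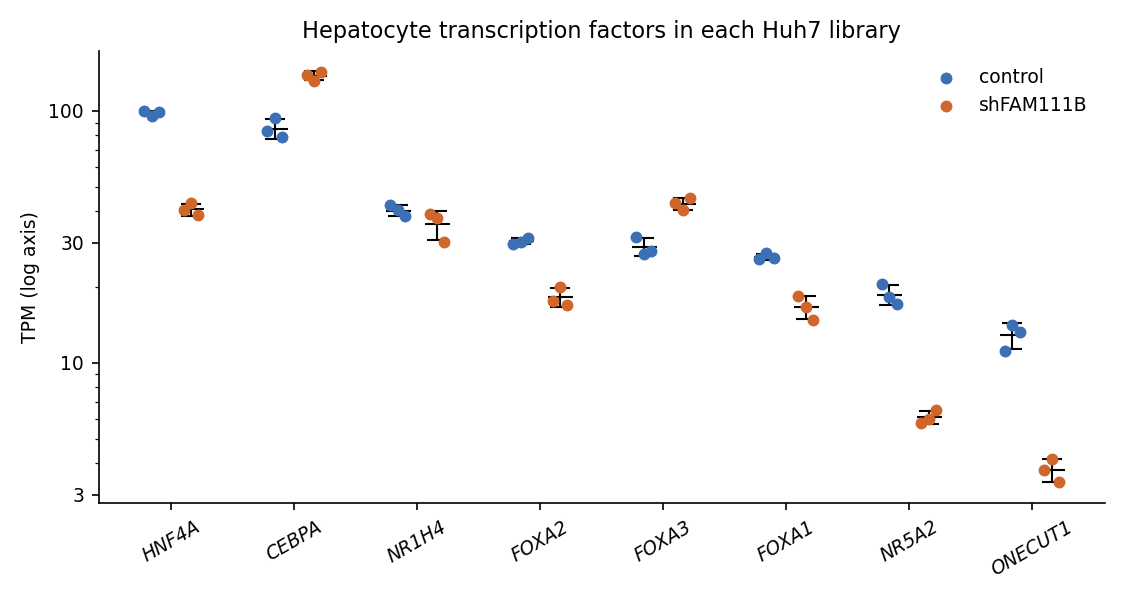
TPM (log axis) of the 8 factors in each of the 3 control and 3 shFAM111B Huh7 libraries, ordered by control mean. Points are libraries, black bars the mean and SD. HNF4A falls from 98.1 to 40.6 TPM while CEBPA rises from 85.2 to 138 TPM, and the groups overlap for NR1H4.

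HNF4A (ENSG00000101076, GRCh38 chr20:44355700-44434596), the nuclear receptor at the centre of the hepatocyte network, was at 99.64, 95.71 and 98.99 TPM in the controls and at 40.46, 42.98 and 38.50 TPM after knockdown. Every knockdown library lay below every control library. The means were 98.1 ± 2.11 and 40.6 ± 2.25 TPM (SD, n = 3). On the log2 scale HNF4A changed by -1.25 (SE 0.0568, 95% interval -1.39 to -1.12, limma adjusted p = 4.2e-06), or 2.38-fold lower. Folds here and below are of TPM + 1, so they understate the ratios of the TPM. Relative to the median gene the change was -0.89. Across the scalings it lay between -1.38 and -0.72, so the fall passed the test in each but was under 2-fold in some of them. HNF4G, the close relative of HNF4A, fell further, so the HNF4A share of their summed TPM went from 91.8%, 90.8% and 92.5% to 96.2%, 96.6% and 96.6%. HNF4A-AS1, an RNA on the opposite strand, has a gene span of 22961 nt over the locus and a longest transcript of 648 nt. Its level was 1.89, 1.34 and 1.11 and then 3.96, 1.94 and 3.14 TPM (log2 fold change 0.69, limma adjusted p = 0.0276). It was low beside HNF4A, and its test no longer passed without control replicate 2 or 3 or without shFAM111B replicate 1 or 3 (limma adjusted p = 0.0716, 0.0859, 0.0843 and 0.0684), without the filter (0.0861) or with the length and expression trend removed (0.28, limma adjusted p = 0.325).

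ONECUT1 (ENSG00000169856, chr15:52756989-52791078), which encodes HNF6, was the least abundant factor in both groups. It was at 11.18, 14.11 and 13.25 TPM in the controls and 3.75, 4.15 and 3.36 TPM after knockdown, with no overlap. The log2 fold change of -1.54 (SE 0.121, 95% interval -1.83 to -1.25, limma adjusted p = 3.02e-05), or 2.91-fold lower in TPM + 1, was -1.18 relative to the median gene. It was the only factor that stayed more than 2-fold lower under every scaling tried, from -1.69 to -1.01. Its relative ONECUT2 was at 6.88, 7.25 and 6.93 and then 6.08, 5.14 and 4.45 TPM. Its log2 fold change of -0.37 (limma adjusted p = 0.0264) turned with scaling (-0.50 to 0.16) and did not pass in 5 of the 6 fits that left out a library (limma adjusted p = 0.0580 to 0.0765). ONECUT1 took 61.9%, 66.1% and 65.7% of the pair in the controls and 38.1%, 44.7% and 43.0% after knockdown, and the order of the paralogues was exchanged. ONECUT3 was at 0.04 TPM or less in every library. The ONECUT shares are within-library values and do not depend on scaling, and the exact permutation test of the share gave p = 0.1. A trend on length and expression still enters them, fitted in log2 at -0.14 for ONECUT1 and -0.95 for ONECUT2.

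NR5A2 (ENSG00000116833, chr1:200027602-200177424), a receptor that activates cholesterol and bile acid genes with HNF4A, went from 20.52, 18.30 and 17.12 TPM to 5.78, 6.01 and 6.49 TPM. The highest knockdown library was under the lowest control. Its log2 fold change of -1.47 (SE 0.0958, 95% interval -1.69 to -1.24, limma adjusted p = 1.42e-05) was 2.77-fold lower in TPM + 1, and -1.11 relative to the median gene, with a range of -1.61 to -0.93 over the scalings. The bile acid receptor NR1H4 (ENSG00000012504, chr12:100473708-100564413) was at 42.21, 40.32 and 38.13 TPM and then 38.93, 37.49 and 30.14 TPM. Its groups overlapped, and the change of -0.18 (SE 0.103, 95% interval -0.43 to 0.06) had a limma adjusted p of 0.152. NR1H4 is the factor whose sign turned with scaling, from -0.31 (limma adjusted p = 0.0475) to 0.35 (limma adjusted p = 0.0202), so no direction is given for it. The ratio of NR1H4 to NR5A2 within a library, free of scaling, was 2.06, 2.20 and 2.23 in the controls and 6.74, 6.24 and 4.64 after knockdown. It is not free of the trend on length and expression, fitted in log2 at -0.38 for NR1H4 and -0.87 for NR5A2.

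The FOXA factors split. FOXA1 (ENSG00000129514, chr14:37589984-37596059) was at 25.81, 27.22 and 25.97 TPM in the controls and 18.38, 16.70 and 14.85 TPM after knockdown (log2 fold change -0.64, SE 0.0878, limma adjusted p = 0.000489). FOXA2 (ENSG00000125798, chr20:22581005-22585455) was at 29.73, 30.32 and 31.31 TPM and then 17.62, 20.07 and 16.99 TPM (-0.71, SE 0.0782, limma adjusted p = 0.000151). FOXA3 (ENSG00000170608, chr19:45863989-45873797) was at 31.59, 27.14 and 27.81 TPM and then 43.26, 40.28 and 45.10 TPM (0.56, SE 0.0789, limma adjusted p = 0.000557). FOXA1 and FOXA2 were lower and FOXA3 higher in each knockdown library than in each control library. Relative to the median gene the changes were -0.27, -0.35 and 0.92, in that order. FOXA1 no longer passed the test in 5 of the alternatives, with values of -0.24 to -0.10, and FOXA2 did not when the library median was subtracted (-0.18, limma adjusted p = 0.0826). FOXA3 passed in all of them, from 0.44 to 1.09.

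Within the FOXA family the shares are free of scaling, but not of the trend on length and expression. Its fitted log2 values were -0.44 for FOXA1, -0.30 for FOXA2 and -0.14 for FOXA3. FOXA3 held 36.3%, 32.1% and 32.7% of the summed FOXA TPM in the controls, about as much as each relative, and 54.6%, 52.3% and 58.6% after knockdown. The FOXA1 share went from 29.6%, 32.1% and 30.5% to 23.2%, 21.7% and 19.3%, and the FOXA2 share from 34.1%, 35.8% and 36.8% to 22.2%, 26.0% and 22.1%. The exact permutation test gave p = 0.1 for each share. The FOXA2 to FOXA1 ratio was 1.15, 1.11 and 1.21 and then 0.959, 1.20 and 1.14, and the groups overlapped (exact permutation p = 0.6). The summed FOXA TPM as deposited was 84.7 to 87.1 in the controls and 76.9 to 79.3 after knockdown. Unlike the shares, this sum depends on scaling, so no direction is given for it. LINC00261, the long noncoding RNA next to FOXA2, went from 116.04, 107.08 and 99.88 TPM to 62.42, 53.98 and 79.08 TPM (log2 fold change -0.73, limma adjusted p = 0.00222), but the test did not pass with median-of-ratios (-0.28) or upper-quartile scaling (-0.32), with the library median subtracted (-0.20) or with the length and expression trend removed (-0.21).

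FOXA1 and FOXA2 share sequence, and 1.6% of the FOXA1 and 4.08% of the FOXA2 words of 31 nt occur in other transcripts, while FOXA3 has none. FOXA2 is overlapped on its own strand over 3257 nt by AL121722.1, which was not used here, and FOXA1 on the opposite strand over 213 nt by TTC6 (3.39, 3.13 and 2.91 TPM, then 2.86, 6.97 and 5.19 TPM).

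**Figure D2:**
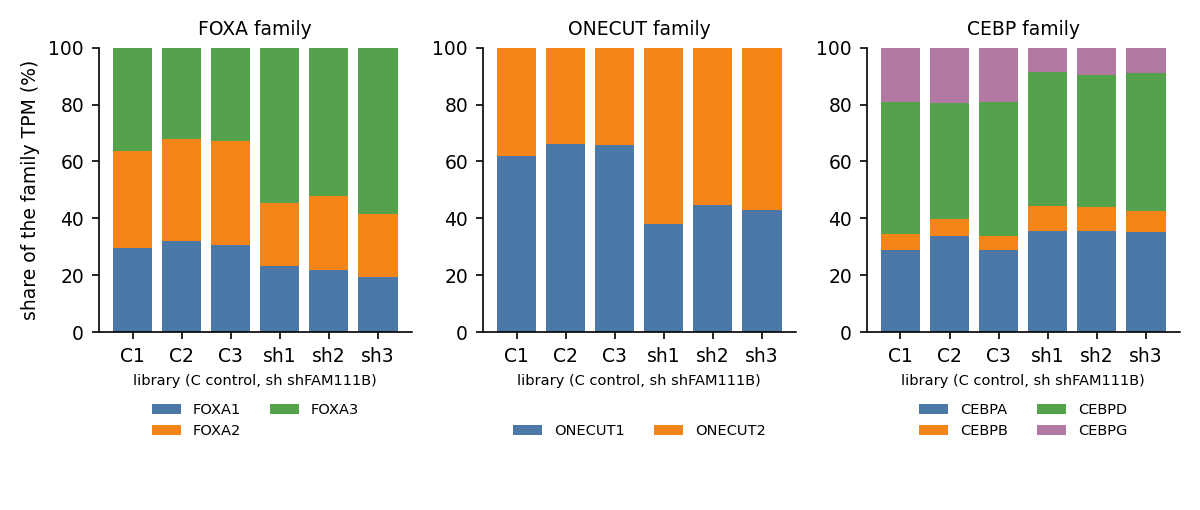
Share of the family TPM (%, linear axis from 0) held by each FOXA, ONECUT and CEBP paralogue in each library (C1 to C3 control, sh1 to sh3 shFAM111B). FOXA3 takes 54.6%, 52.3% and 58.6% of FOXA in the knockdown libraries against 36.3%, 32.1% and 32.7% in the controls, and ONECUT2 rather than ONECUT1 is the larger part after knockdown.

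CEBPA (ENSG00000245848, chr19:33299934-33302564), a bZIP factor that restrains proliferation in hepatocytes, was at 83.26, 93.41 and 78.92 TPM in the controls and 138.65, 131.86 and 143.36 TPM after knockdown, with no overlap. The log2 fold change was 0.69 (SE 0.072, 95% interval 0.52 to 0.86, limma adjusted p = 0.000116), 1.62-fold, and 1.05 relative to the median gene. It was positive under every scaling, from 0.57 to 1.22. An antisense RNA, AC008738.3, has a gene span that overlaps 1235 nt of CEBPA on the other strand, and a transcript of 659 nt. It was at 21.18, 10.24 and 16.99 TPM in the controls and 147.67, 117.04 and 139.27 TPM after knockdown (log2 fold change 3.03, limma adjusted p = 3.08e-05). The labels name a stranded kit and the study's methods a TruSeq kit without mention of strand, and whether the counting used strand is not stated. Without that, reads from the stretch shared by CEBPA and this RNA cannot be told apart, and the CEBPA rise is uncertain to that extent. The same holds for HNF4A with HNF4A-AS1, which is far lower in level, and for FOXA1 with TTC6. After knockdown TTC6 was at 2.86 to 6.97 TPM, beside FOXA1 at 14.85 to 18.38 TPM. The divergent transcript CEBPA-DT was at 3.12, 2.64 and 3.47 and then 5.22, 6.14 and 7.13 TPM (log2 fold change 0.81, limma adjusted p = 0.00172).

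The CEBP relatives moved unequally. CEBPB, which has roles in acute-phase and stress responses, went from 16.84, 15.71 and 13.33 to 33.16, 30.32 and 30.17 TPM, and CEBPD from 133.91, 113.05 and 128.20 to 184.32, 171.83 and 197.84 TPM. CEBPG, which lacks a strong activation domain, went from 54.59, 53.04 and 51.60 to 32.77, 35.54 and 35.67 TPM (log2 fold change -0.60), or -0.07 with the library median subtracted and -0.04 with the trend removed. The CEBPA share of the summed TPM of the 4 went from 28.8%, 33.9% and 29.0% to 35.7%, 35.7% and 35.2%, and the CEBPG share from 18.9%, 19.3% and 19.0% to 8.43%, 9.62% and 8.76%. The ratio of CEBPA to HNF4A within a library was 0.836, 0.976 and 0.797 in the controls and 3.43, 3.07 and 3.72 after knockdown (exact permutation p = 0.1). The trend on length and expression enters this ratio, fitted in log2 at -0.18 for CEBPA and -0.66 for HNF4A.

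**Figure D3:**
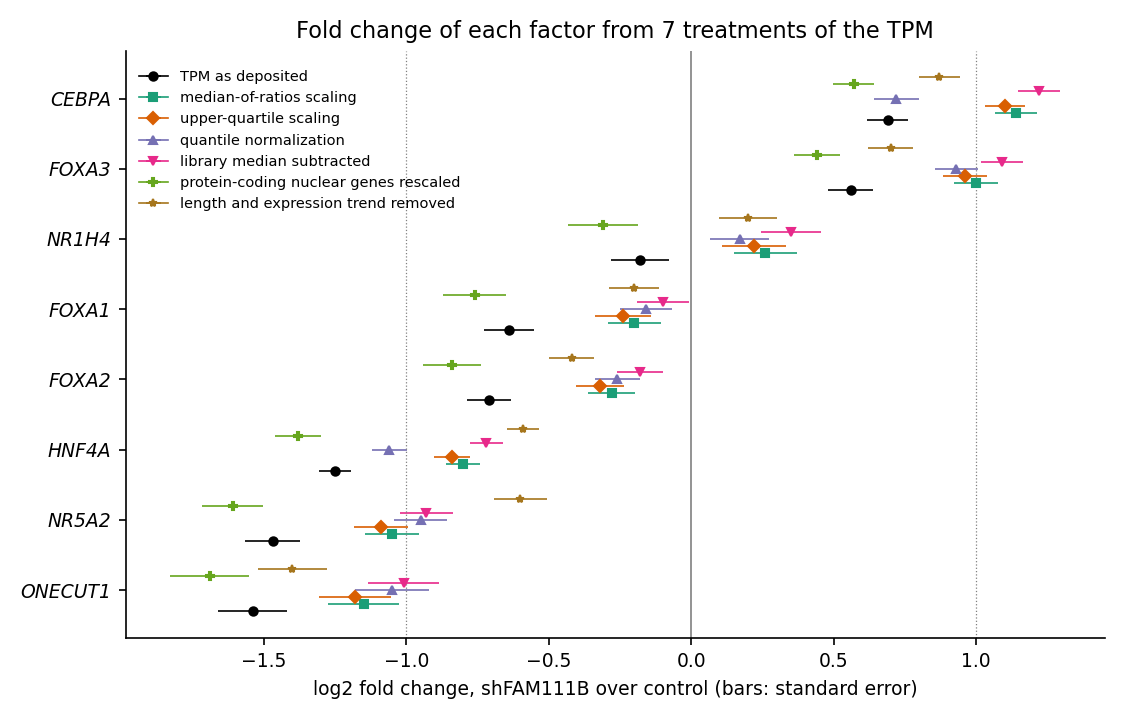
Log2 fold change of each factor, shFAM111B over control, with standard errors, from the deposited TPM, 5 other scalings and removal of the length and expression trend. Dotted lines mark 2-fold. HNF4A, NR5A2 and ONECUT1 stay negative and CEBPA and FOXA3 positive throughout, while NR1H4 changes sign.

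The order of the levels, which TPM allows between genes, was HNF4A, CEBPA, NR1H4, FOXA2, FOXA3, FOXA1, NR5A2 and ONECUT1 in the controls. There, FOXA2 and FOXA3 overlapped, as did FOXA3 and FOXA1, and no other neighbours did. After knockdown the order was CEBPA, FOXA3, HNF4A, NR1H4, FOXA2, FOXA1, NR5A2 and ONECUT1, and HNF4A overlapped with FOXA3 and with NR1H4, and FOXA1 with FOXA2. Among the tested genes the level of HNF4A stood at percentile 90.8 in the controls and 81.6 after knockdown, that of CEBPA at 89.2 and 93.3, and that of ONECUT1 at 51.1 and 32.1.

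Transcript length moved with the fold changes over all genes. The median log2 fold change was 0.17 for the 2237 tested genes whose longest transcript is over 1000 and up to 2000 nt, -0.20 for the 2926 of 2000 to 3000 nt, -0.60 for the 4055 of 3000 to 5000 nt and -0.84 for the 2531 of 5000 to 8000 nt. FOXA3 (1989 nt) lies in the first of these classes, HNF4A (6445 nt) and NR5A2 (5086 nt) in the last, and the other 5 in the second. With a trend on length and expression removed, HNF4A was at -0.59 and NR5A2 at -0.60, both past the test but under 2-fold, and ONECUT1 (2092 nt) was at -1.40. FOXA1 was then at -0.20, FOXA2 at -0.42, NR1H4 at 0.20, FOXA3 at 0.70 and CEBPA at 0.87. What part length plays in the differences was not tested.

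**Figure D4:**
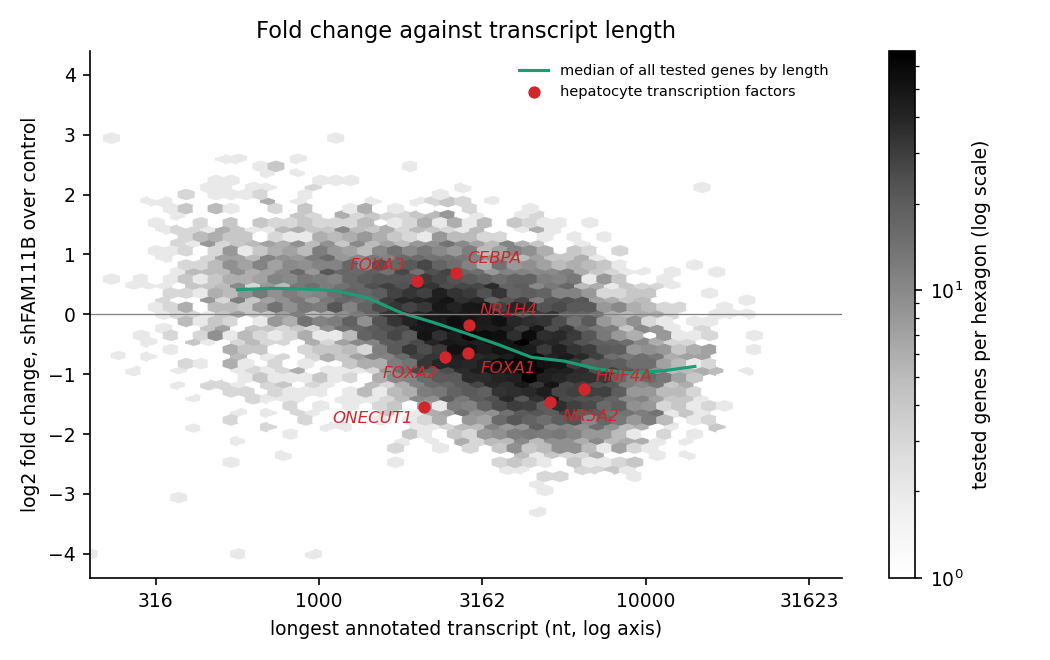
Log2 fold change of the tested genes, shFAM111B over control, against the length of the longest annotated transcript (log axis), with shading for gene density, the median by length as a line and the 8 factors as points. Values beyond 4 are drawn at 4. HNF4A and NR5A2 lie among long transcripts whose median is negative, and ONECUT1 lies below the line at 2092 nt.

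The network beyond the 8 was read from lists of genes, against 50.9% of all tested genes that fell and 21.1% that rose. Of 18 other liver-enriched factors 17 were tested, of which 12 fell and 3 rose, with 7 above the median of all genes. The list median was -0.48, 0.05 with the library median subtracted and 0.08 with the length and expression trend removed. PROX1, a repressor of HNF4A and NR5A2 activity that is needed for liver growth, went from 28.65, 24.17 and 21.74 to 4.04, 4.90 and 4.32 TPM (log2 fold change -2.25, limma adjusted p = 7.2e-06). HNF4G fell by 1.99, HLF, a PAR bZIP factor of the clock output, by 2.05, and GATA6, an endoderm factor, by 1.41 on the log2 scale. With the trend removed PROX1 was at -1.21, HNF4G at -1.36, HLF at -1.35 and GATA6 at -0.77. DBP, another PAR bZIP factor, rose from 1.46, 0.62 and 1.46 to 6.77, 4.67 and 5.06 TPM (log2 fold change 1.59, limma adjusted p = 0.000433), and is named after its values were seen.

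Of 16 partner nuclear receptors, 15 were tested, 11 fell and 1 rose, with 5 above the median of all genes. The list median was -0.61, -0.08 with the library median subtracted and -0.02 with the trend removed. The RXR partners of NR1H4 fell less than 2-fold, RXRA from 27.17, 26.02 and 27.07 to 15.50, 15.96 and 16.31 TPM (log2 fold change -0.71) and RXRB from 19.01, 19.39 and 19.61 to 12.33, 11.88 and 12.78 TPM (-0.61). With the trend removed RXRA was at 0.13. RXRB did not pass under quantile normalization (-0.11), with the library median subtracted (-0.08) or with the trend removed (-0.15). NR3C1, the glucocorticoid receptor, fell by 1.88, and was at -0.96 with the trend removed. THRB, a thyroid hormone receptor, fell by 0.81, but did not pass with the library median subtracted (-0.28). With the trend removed THRB was at 0.13. The receptor that rose was NR1H3 (LXR alpha), at 27.93, 24.50 and 30.84 and then 42.92, 41.06 and 42.40 TPM, named after its values were seen.

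Coregulators had the lowest list median. Of 12, 10 were tested, 8 fell, of which 7 more than 2-fold, and 1 rose, with a median of -1.38 and 2 above the median of all genes. Among all tested genes 23.7% fell more than 2-fold, and with the trend removed 3 coregulators did, where 9.11% of all genes did. EP300, an acetyltransferase recruited by these factors, went from 17.47, 17.43 and 22.06 to 1.09, 1.27 and 0.88 TPM (log2 fold change -3.26, limma adjusted p = 3.39e-06), and KMT2D, a methyltransferase of enhancers, fell by 2.56, NCOA2 by 2.11 and CREBBP by 1.77. The genes of this list are long, with a median of 8922 nt, and its median was -0.51 with the trend removed. EP300 was then at -2.27, KMT2D at -1.67, NCOA2 at -1.09 and CREBBP at -0.79. Among 14 factors used in all cells, 12 fell and 1 rose, with a median of -1.01 (-0.35 with the trend removed) and 2 above the median of all genes. Among these NFYC, NFYA, GABPA and YY1 fell by 1.45, 1.33, 1.81 and 1.04. With the trend removed NFYC was at -1.17, NFYA at -0.66 and GABPA at -1.01, and YY1 did not pass (-0.16, limma adjusted p = 0.0695). The median of the hepatocyte factors was -0.67, or -0.31 with the trend removed, which is close to that of the factors used in all cells, and 3 of the 8 were above the median of all genes.

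Genes that HNF4A and FOXA regulate moved both ways. Of 18, 15 were tested, of which 7 rose, 7 fell and 1 did not pass, with 9 above the median of all genes, where 21.1% of all genes rose and 50.9% fell. The list median was 0.10, 0.64 with the library median subtracted and -0.14 with the trend removed. APOB, the structural protein of very low density lipoprotein, went from 230.19, 245.22 and 234.01 to 47.30, 51.50 and 45.67 TPM (log2 fold change -2.27, limma adjusted p = 1.58e-06). MTTP, which loads lipid onto APOB, went the other way, from 47.48, 47.43 and 47.51 to 121.32, 127.20 and 115.93 TPM (1.34, limma adjusted p = 2.95e-06). AFP rose by 1.66, APOA1 by 1.11 and TTR (transthyretin) by 1.04, and ALB fell by 0.63 on the log2 scale, or was at -0.10 with the library median subtracted.

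In the bile acid axis, downstream of NR1H4 and NR5A2, 13 of 19 genes were tested, of which 7 fell and 2 rose, with 5 above the median of all genes, and 50.9% of all genes fell. The list median was -0.42, 0.11 with the library median subtracted and -0.27 with the trend removed. KLB, the co-receptor for FGF19, went from 51.50, 46.86 and 45.96 to 14.70, 15.77 and 14.19 TPM (log2 fold change -1.63, limma adjusted p = 4.1e-06), and the export pumps ABCC2 and ABCC3 fell by 1.18 and 1.11. With the trend removed KLB was at -0.81 and ABCC2 at -0.35, and ABCC3 was at -0.27 and did not pass (limma adjusted p = 0.102). SLC51B, a subunit of a bile acid exporter, rose from 31.28, 35.34 and 34.55 to 72.28, 62.56 and 78.92 TPM (1.05, limma adjusted p = 5.92e-05). NR0B2 (SHP), the repressor induced by NR1H4, was at 7.81, 10.89 and 10.26 and then 6.28, 6.27 and 8.40 TPM, and its groups overlapped (log2 fold change -0.42, limma adjusted p = 0.0493), with a sign that turned with scaling (-0.54 to 0.12). CYP7A1, the rate-limiting enzyme of bile acid synthesis, was listed at 0 in every library. ABCB11, the bile salt pump, had 6.19, 0.49 and 0.60 TPM and then 0.10, 0.07 and 12.48 TPM, with 1 high library in each group, and was not tested.

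Markers of other cell types were read beside the factors. Of 5 biliary markers 4 were tested, and KRT19 rose by 2.38 and EPCAM by 0.34, while SOX9 fell by 1.37 and SPP1 did not pass. EPCAM did not pass when rescaled over protein-coding nuclear genes (0.22). The summed biliary TPM was 139.5 to 144.5 in the controls and 229.8 to 259.2 after knockdown. Its rise lies in KRT19, which was at 28.08 to 34.27 and then 145.35 to 182.14 TPM. KRT7 was at 0 in 5 of the 6 libraries. Of 7 mesenchymal markers 4 were tested, of which VIM fell by 0.58, CDH2 by 1.04 and ZEB1 by 1.44 and COL1A2 rose by 0.53, with sums of 749.7 to 816.3 and 480.1 to 539.4 TPM. VIM did not pass with median-of-ratios scaling (-0.13) or with the library median subtracted (-0.05). COL1A2 did not pass without the filter, when rescaled over protein-coding nuclear genes, or without control replicate 1 or 3 or shFAM111B replicate 1 or 2 (limma adjusted p = 0.0673 to 0.0879). TWIST1 was at 0 in all 6 libraries. Of 4 intestinal markers 3 were tested, of which CDX2 rose by 1.94 and VIL1 fell by 1.04 and LGR5 by 1.46, with sums of 110.8 to 121.9 and 91.61 to 106.7 TPM. CDX1 was at 0 throughout. Of the endothelial markers PECAM1 was at 1.26 to 2.28 and 2.12 to 3.49 TPM and KDR at 0, and of the immune markers CD68 rose by 0.45 while CD14 did not pass, with sums of 19.09 to 21.91 and 23.78 to 25.97 TPM. Their part in the results on the factors was not tested.

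The genes whose log2 TPM was most like each factor over the 6 libraries were found among about 7049 protein-coding genes of at least 10 TPM on average, as a description. Pearson's r was 0.9999 for HNF4A with EPS8 and 0.9998 with PCBP1, and 1637 genes had r above 0.99. For NR5A2 the nearest were PRR11 and PDXDC1 (r = 0.9999 and 0.9997), and for ONECUT1 ADCY9 and ESPL1 (0.9993 and 0.9990). FOXA1 was nearest to ALDH7A1 and RNF4 (0.9989 and 0.9972), FOXA2 to DNAJC14 and NSUN2 (0.9990 and 0.9989), and FOXA3 to COMMD7 and NFKBIL1 (0.9982 and 0.9981). CEBPA was nearest to MMS19 and PDRG1 (0.9997 and 0.9991). NR1H4 had no gene above 0.99, and its nearest were NR2F6 and TIMM10B (0.9648 and 0.9619). The 6 libraries form separate groups of 3, so such values carry the difference between the groups.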

How the data were processed

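Poly(A)-selected RNA of Huh7 cells was sequenced in 3 libraries of control and 3 of shFAM111B cells. The deposited values are TPM per library made by the authors. The submitters' processing notes name RSEM, DESeq2 and hg38, without versions or roles. The deposited table also holds the authors' mean TPM of each group, their fold (ratio) between the groups, the log2 of this ratio, and p-values with and without adjustment. None of these was used. The strand setting of the counting is not given in the sources used here. TPM are relative and keep no depth, so a count test was not used.

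Tested were the 14394 genes that reached 1 TPM in 3 or more libraries, on the scale log2(TPM + 1). Fold changes are on this scale, which understates changes of low genes. Groups were compared in limma 3.58.1 (R 4.3.3) with a trend and no covariates, with Benjamini-Hochberg adjustment over all tested genes. On simulated data 182 of 200 changed genes were recovered with 1 false call among 14394 genes. The simulation had independent noise and no shift common to all genes or to long transcripts, so it gives no error rate for these data. Exact permutation tests were two-sided. Alternatives were no filter, a minimum of 1 TPM in all libraries, a pseudocount of 0.1, 5 other scalings, removal of a loess trend on length and expression, a replicate block, unadjusted P and leaving out each library. Positions and lengths are from GENCODE release 29 (GRCh38), which shares 96.3% of the listed Ensembl identifiers, and the length is that of the longest transcript. The text names the 8 factors, FAM111B, the 4 tested genes of smallest p in each list, hepatocyte markers and the 2 genes most like each factor, and further genes for paralogues, overlaps or roles. The factors and lists were chosen with earlier results of these data known. Some items of the lists are counted but not reported by name here.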

Additional observations from a re-analysis of the deposited data

How the results depend on the processing

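The falls of HNF4A, NR5A2 and ONECUT1 and the rises of FOXA3 and CEBPA kept their direction and a limma adjusted p under 0.05 in every alternative run. All alternatives start from the same deposited TPM, so they do not address reads that CEBPA may share with AC008738.3. All-gene counts depended on scaling. With the deposited TPM 974 genes were called higher and 3406 lower (22.2% of calls higher), and the counts were 2017 and 1793 (52.9%) with median-of-ratios scaling, 1884 and 1905 (49.7%) with upper-quartile scaling, 1673 and 1846 (47.5%) with quantile normalization, 2574 and 1305 (66.4%) with the library median subtracted, 506 higher (11.7%) when rescaled over protein-coding nuclear genes, 634 higher with a minimum of 1 TPM in all libraries, and 1300 lower (51.1% of calls higher) with the length and expression trend removed. Factors called higher were 0 as deposited, 1 (CEBPA) with median-of-ratios and with upper-quartile scaling and 2 (with FOXA3) with the library median subtracted. Factors called lower were 3 as deposited, 2 with median-of-ratios and upper-quartile scaling (NR5A2 and ONECUT1) and with quantile normalization (HNF4A and ONECUT1), and 1 (ONECUT1) with the library median subtracted or the trend removed.

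NR1H4 turned to 0.26, 0.22, 0.17 and 0.35 under median-of-ratios, upper-quartile, quantile and median scaling and to 0.20 with the trend removed. With the trend removed RXRA and THRB were each at 0.13 and ONECUT2 was at 0.57. ONECUT2 was at 0.02 under median-of-ratios and at 0.14 under quantile normalization. With the library median subtracted ONECUT2 was at 0.16 and NR0B2 at 0.12, and NR0B2 was at 0.11 under quantile normalization. SPP1 was at 0.37, 0.33, 0.42 and 0.47 under the same 4 scalings and at -0.15 to 0.06 when 1 library was left out (0.06 without shFAM111B replicate 3), and CD14 was at 0.08 with the library median subtracted. CD14 passed the test when rescaled over protein-coding nuclear genes (-0.57) or without shFAM111B replicate 2 (-0.64), and PECAM1 passed under 4 scalings and with the trend removed (0.69 to 1.14). The cause was not tested. Leaving out each library gave 904 to 1073 genes higher and 3360 to 3545 lower, 0 and 3 factors called, 7 factors changed at any size, and FAM111B at -2.25 to -2.15. FAM111B has no value under the minimum of 1 TPM in all libraries.

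Replicate numbers are shared by the groups, but deviations of same-numbered libraries correlated at only 0.054, 0.035 and 0.091, so the numbers were not taken as pairs. Each control library was closest to the knockdown library of its own number, but knockdown replicate 2 was closest to control replicate 1 (0.044). With a replicate block 983 genes were called higher and 3402 lower, the same 3 factors were called, and no named gene gained or lost its call. Depth is unknown, so counting error cannot be given.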
